A study of Mus musculus with 6 samples.

Results

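Imprinted growth genes were compared between stem cell factor-expressing cells and whole cells of mouse bone marrow. The members were 10 genes, H19, Dlk1, Meg3, Peg3, Plagl1, Grb10, Mest, Ndn, Zim1 and Sgce. A value was taken from the array row that listed a member as its single gene symbol, and 9 of the 10 members had exactly 1 such row. H19 had none and was not analysed here. The 9 members stood among 19938 genes tested.

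The study hybridised RNA to Affymetrix Mouse Gene ST 1.0 arrays, on which many probes along a transcript are summarised to 1 value. There were 3 arrays of Scf-GFP+ cells, double-sorted from the bone marrow of young adult mice that carry a green fluorescent protein knocked into the stem cell factor gene (Kitl) in heterozygous form, and 3 arrays of sorted whole bone marrow cells from wild-type young adult mice. All mice were on the C57BL/6 background, and each array started from 5000 cells whose RNA was amplified. Genotype and the second sort therefore changed together with the cell population and cannot be told apart from it. Whether the aliquots came from different mice is not stated, so each p-value below reflects variation among these 6 arrays only, some of which may be technical.

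An imprinted gene is transcribed from the copy inherited from the mother or from the father. Which copy is silent typically depends on DNA methylation marks set in the germ line. Many imprinted genes act on fetal growth, and in mice those that restrain growth tend to be maternally expressed and those that promote it paternally expressed. A set of them, including many of the genes described here, is known to be expressed together in growing tissues and in some stem cells and to decline after birth. The arrays read the sum of both copies, and these mice were of a single inbred background, so nothing below says which copy was transcribed.

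Of the 9 measured members, 5 were called higher in Scf-GFP+ cells, 0 were called lower and 4 were called in neither direction. Sgce showed the largest difference, 31.3-fold, followed by Plagl1 at 8.76-fold, Ndn at 6.19-fold, Grb10 at 5.92-fold and Peg3 at 2.03-fold. Dlk1, Meg3, Mest and Zim1 did not pass the test, and in limma 0 members were lower at an unadjusted p below 0.05. The rule for a call was a limma adjusted p below 0.05 over all genes and a change of 2-fold or more. By this rule 9.01% of all genes were called higher and 7.89% lower. The arrays of the 2 groups did not overlap for the 5 called members, all higher, and overlapped for the other 4. Of all genes, 19.0% lay higher and 26.4% lower without overlap. The median log2 difference was 1.02 over the 9 members and -0.08 over all genes. In bulk RNA, more cells that express a gene and more RNA per cell cannot be told apart.

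**Figure D1:**
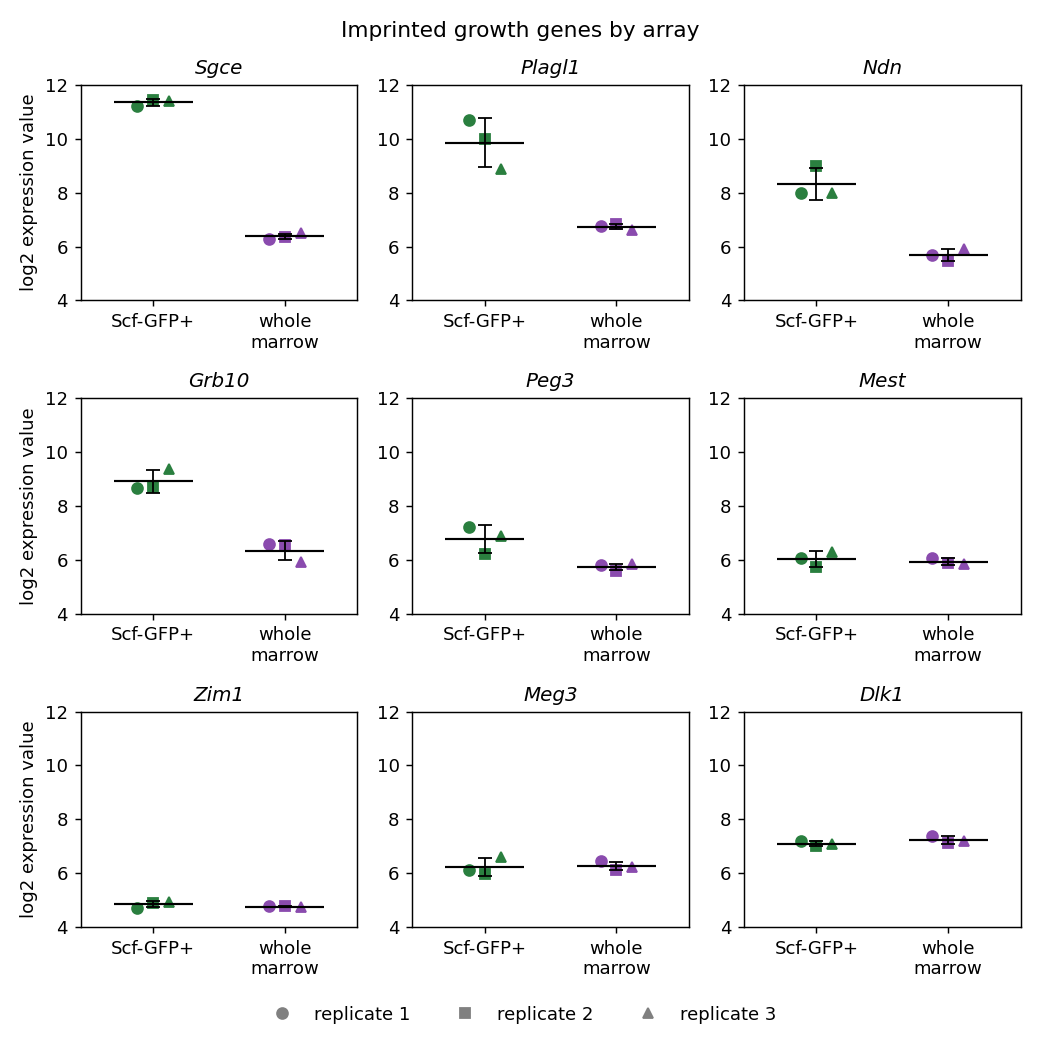
Log2 expression value (vertical axis, the same range in each panel) of the 9 measured members on each of the 3 Scf-GFP+ arrays (green, left) and the 3 whole bone marrow arrays (purple, right). Symbols mark the replicate, lines the mean and bars the SD (n = 3), and the panels run from the largest difference (Sgce, 4.97) to the smallest (Dlk1, -0.14). The groups are apart in the first 5 panels and overlap in the last 4.

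Sgce encodes epsilon-sarcoglycan, a membrane glycoprotein of the complex that links the cytoskeleton to the extracellular matrix, and is paternally expressed. On the log2 scale Sgce measured 11.20, 11.45 and 11.39 in Scf-GFP+ replicates 1, 2 and 3, against 6.29, 6.35 and 6.49 in whole marrow. All Scf-GFP+ arrays lay far above all whole marrow arrays, and the replicates of each group were close. The difference was 4.97 ± 0.12 (SE, limma, n = 3 arrays per group, 95% confidence interval 4.69 to 5.25, adjusted p = 2.1e-06). It ranked 96 among the 19938 genes by size of a positive difference. The genes whose 6 deviations from their own mean lay nearest to those of Sgce, by Euclidean distance over the 6 arrays, were Fxyd1 (distance 0.15), Pcolce (0.24) and Ms4a4d (0.26). Their log2 differences were 4.93, 5.02 and 5.09.

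The other members of this protein complex were listed as partners of Sgce. Outside striated muscle, epsilon-sarcoglycan is known to assemble with beta- and delta-sarcoglycan, encoded by Sgcb and Sgcd, in place of the muscle form alpha, encoded by Sgca. Sgcb measured 10.10, 10.15 and 9.75 in Scf-GFP+ cells, against 7.38, 6.36 and 6.93 in whole marrow (log2 difference 3.11 ± 0.27 SE, limma adjusted p = 0.00024). Sgcd measured 7.77, 6.73 and 7.86 in Scf-GFP+ cells, against 4.61, 4.44 and 4.68 in whole marrow (2.87 ± 0.30, limma adjusted p = 0.00063). Both groups were apart for each gene. Of 14 listed genes 12 were measured. Among all genes, 9.01% were called higher and 7.89% lower. Of the 12, 5 were called higher and 0 lower (0 lower also at an unadjusted limma p below 0.05). The others were Sntb1, a syntrophin adaptor, at 1.60 ± 0.29, and, named after their values were seen, dystroglycan (Dag1) at 1.59 ± 0.17 and utrophin (Utrn) at 1.08 ± 0.20. Sgca differed by -0.10 ± 0.11 and dystrophin (Dmd) by -0.14 ± 0.10, and neither was called. With a term for the split of arrays by Xist described further on, 3 members of the list were called higher. Sntb1 was not among them (0.96, limma adjusted p = 0.0419, below 2-fold), nor was Utrn (1.07, limma adjusted p = 0.0764). Utrn also fell below 2-fold without Scf-GFP+ replicate 1 (0.90) or whole marrow replicate 3 (0.99).

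Plagl1, also known as Zac1, encodes a paternally expressed zinc finger transcription factor that can halt the cell cycle and that, in mice, regulates other imprinted genes. Plagl1 measured 10.71, 10.01 and 8.88 in Scf-GFP+ replicates 1, 2 and 3, against 6.75, 6.82 and 6.63 in whole marrow. Its Scf-GFP+ arrays were spread over 1.83 log2 units, and the lowest of them still lay above every whole marrow array. The log2 difference was 3.13 ± 0.43 (SE, n = 3 per group, 95% confidence interval 2.11 to 4.15, limma adjusted p = 0.00208). The SD over the Scf-GFP+ arrays, 0.92, was larger than that of 98.6% of all genes, while in whole marrow the SD was 0.09.

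Measures of other cell types also differed among the Scf-GFP+ arrays. The mean log2 value of 14 endothelial markers was 7.12, 6.93 and 6.54 on Scf-GFP+ replicates 1, 2 and 3, in the same order as Plagl1, and 6.51 to 6.57 on the whole marrow arrays. Of these 14 genes, 2 were called higher (Cdh5, vascular cadherin, at 1.40 and Emcn, endomucin, at 2.20) and 1 lower (Pecam1 at -1.90). The shares over all genes were 9.01% higher and 7.89% lower. Kdr, the main vascular growth factor receptor of endothelium, measured 6.51, 6.05 and 6.05 in Scf-GFP+ cells, against 5.68, 6.36 and 6.05 in whole marrow. The arrays also split by Xist, the RNA of the silenced X chromosome of female cells, which was above a log2 value of 8 on 2 arrays, Scf-GFP+ replicates 1 and 2. With a term for this split, in which the group difference is that of Scf-GFP+ replicate 3 from whole marrow, Plagl1 differed by 2.14 (limma adjusted p = 0.0051). The part of endothelial cells or of sex in the spread of Plagl1 was not tested.

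Ndn encodes necdin, a paternally expressed protein of the MAGE family that binds E2F1 and p53 and restrains proliferation, and that lies in the region lost in human Prader-Willi syndrome. Ndn measured 7.98, 9.0 and 7.97 in Scf-GFP+ cells, against 5.67, 5.48 and 5.91 in whole marrow. Scf-GFP+ replicate 2 was the highest by about the distance of a 2-fold step, and the groups did not overlap. The log2 difference was 2.63 ± 0.30 (SE, n = 3 per group, 95% confidence interval 1.92 to 3.34, limma adjusted p = 0.0009). Among the family relatives listed for Ndn, Plagl1 and Dlk1, 4 of 10 were called higher and 1 lower, against 9.01% and 7.89% of all genes. Maged1, a MAGE protein known as a partner of neurotrophin signalling, measured 11.19, 11.33 and 11.02 in Scf-GFP+ cells, against 6.82, 6.41 and 6.83 in whole marrow, a difference of 4.49 ± 0.16. Maged2 differed by 2.35 ± 0.18 and Mageh1 by 1.65 ± 0.22. The imprinted MAGE gene Magel2 differed by -0.12 ± 0.14 and was not called. The relatives of Plagl1 went in opposite directions, with Plag1 at 1.35 ± 0.34 (limma adjusted p = 0.0274) and Plagl2 at -1.03 ± 0.18 (limma adjusted p = 0.00596). Plag1 was not called without Scf-GFP+ replicate 1 (0.97), without any 1 of the 3 whole marrow arrays or with the term for the Xist split (0.99, limma adjusted p = 0.254), and its limma adjusted p ran from 0.0168 to 0.254 over the alternatives. Plagl2 was not called without Scf-GFP+ replicate 1 (-0.89), without whole marrow replicate 2 (-0.93) or with the Xist term (-0.71, limma adjusted p = 0.0636).

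Grb10, maternally expressed in most mouse tissues, encodes an adaptor that binds the activated insulin and IGF1 receptors and dampens their signal. Grb10 measured 8.66, 8.69 and 9.38 in Scf-GFP+ cells, against 6.57, 6.54 and 5.93 in whole marrow. Every Scf-GFP+ array lay more than 2 log2 units above the whole marrow arrays. The log2 difference was 2.57 ± 0.26 (SE, n = 3 per group, 95% confidence interval 1.94 to 3.19, limma adjusted p = 0.00055). Of 14 genes listed for the receptor chain on which Grb10 acts, 5 were called higher and 0 lower, against 9.01% and 7.89% of all genes. At an unadjusted limma p below 0.05, 6 were higher and 3 lower, and the median log2 difference of the 14 was 0.01. Among the 3 lower, Irs2, named after its value was seen, differed by -0.52 ± 0.11 (limma adjusted p = 0.0134, below 2-fold). Irs1, a docking protein of both receptors, measured 10.80, 10.99 and 10.87 in Scf-GFP+ cells, against 5.91, 6.28 and 6.38 in whole marrow, a difference of 4.70 ± 0.15. Igf1, a ligand, differed by 4.23 ± 0.21, and Nedd4, a ubiquitin ligase known to bind Grb10, by 2.63 ± 0.12. Named after their values were seen, the related adaptor Grb14 differed by 2.19 ± 0.33 and the kinase subunit Pik3r1 by 1.21 ± 0.19. The receptors themselves were not called, with Insr at 0.88 ± 0.12 (limma adjusted p = 0.00244, below 2-fold) and Igf1r at 0.05 ± 0.20 (limma adjusted p = 0.866).

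Peg3 and Zim1 are neighbouring zinc finger genes, Peg3 paternally and Zim1 maternally expressed. Peg3, which affects growth and maternal behaviour in mice, measured 7.21, 6.22 and 6.88 in Scf-GFP+ cells, against 5.80, 5.60 and 5.83 in whole marrow. The groups did not overlap, but Scf-GFP+ replicate 2 lay near the whole marrow arrays. The log2 difference was 1.02 ± 0.25 (SE, n = 3 per group, 95% confidence interval 0.42 to 1.62, limma adjusted p = 0.0243), just inside the 2-fold requirement. The call was lost without Scf-GFP+ replicate 1 (0.80, adjusted p = 0.0526) or replicate 3 (0.97, adjusted p = 0.0693). Leaving out a whole marrow array had the same effect, for replicate 1 (1.05, adjusted p = 0.0651), replicate 2 (0.95, adjusted p = 0.077) or replicate 3 (1.07, adjusted p = 0.0634), and over all alternatives the limma adjusted p ran from 0.00301 to 0.111. Scf-GFP+ replicate 1, the highest for Peg3, was also the highest of its group for 14 neutrophil markers (mean log2 value 9.06, against 5.94 and 6.07 on replicates 2 and 3). The whole marrow arrays measured 11.63 to 11.71 for these markers. The part of neutrophils in the spread of Peg3 was not tested. Zim1 measured 4.72, 4.89 and 4.92 in Scf-GFP+ cells, against 4.78, 4.77 and 4.74 in whole marrow, with overlapping groups. Its difference was 0.08 ± 0.10 (95% confidence interval -0.17 to 0.33, limma adjusted p = 0.616), and all 6 values lay below the first quartile of their arrays, where arrays lose resolution.

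Dlk1 and Meg3 are the best-known genes of a shared domain on chromosome 12. Dlk1, paternally expressed, encodes a transmembrane protein with EGF-like repeats that holds back fat cell differentiation, and measured 7.18, 7.02 and 7.09 in Scf-GFP+ cells, against 7.39, 7.12 and 7.20 in whole marrow. Meg3, a maternally expressed long noncoding RNA, measured 6.10, 5.95 and 6.59 in Scf-GFP+ cells, against 6.45, 6.13 and 6.22 in whole marrow. The groups overlapped for both. The Dlk1 difference was -0.14 ± 0.11 (SE, 95% confidence interval -0.41 to 0.14, limma adjusted p = 0.425) and the Meg3 difference -0.05 ± 0.19 (-0.51 to 0.40, limma adjusted p = 0.862). Both intervals exclude a 2-fold difference of the array values in either direction. The values carry no detection call and arrays compress differences at low signal, so a larger difference in RNA is not excluded. The other measured genes of the domain, Rtl1 at -0.11, Rian at -0.20, Dio3 at -0.22 and Begain at -0.27, were not called either. Dlk1 had the lowest difference of the members. The genes nearest to its pattern were Mboat4, Prodh2 and Scn1a (distances 0.04 to 0.06), and none of these was called.

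Mest, paternally expressed, encodes a hydrolase-like membrane protein associated with fat tissue expansion in mice. It measured 6.07, 5.73 and 6.28 in Scf-GFP+ cells, against 6.07, 5.89 and 5.83 in whole marrow, and the groups overlapped. The difference was 0.10 ± 0.16 (SE, 95% confidence interval -0.30 to 0.49, limma adjusted p = 0.708). An intron of Mest holds the microRNA gene Mir335, whose array row measured 7.42, 7.48 and 7.34 in Scf-GFP+ cells, against 7.63, 7.55 and 7.70 in whole marrow. That row was lower by a log2 difference of -0.22 ± 0.10 and was not called (limma adjusted p = 0.17). Such rows detect RNA of the locus and do not measure the mature microRNA. The mature products of this gene are given below with the seed, bases 2 to 8, in capitals, from RefSeq (GRCm38.p6, chr6:30741314-30741336 and chr6:30741354-30741375, plus strand).
mmu-miR-335-5p: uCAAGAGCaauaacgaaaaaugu
mmu-miR-335-3p: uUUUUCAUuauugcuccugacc

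Imprinted genes lie in clusters, so the nearest measured genes were examined, 3 on each side in the gene order of RefSeq (assembly GRCm38.p6), a choice made after the members' values were seen. Of the 42 such genes that are not members themselves, 4 were called higher, 2 lower and 36 in neither direction. Among all genes, 9.01% were called higher and 7.89% lower. On chromosome 6, Sgce shares its promoter region with Peg10, a paternally expressed gene derived from a retrotransposon. Peg10 measured 6.45, 6.41 and 5.89 in Scf-GFP+ cells, against 6.35, 6.45 and 6.44 in whole marrow, a difference of -0.16 ± 0.17. On the other side of Sgce, Casd1 reached 0.87 ± 0.25 (limma adjusted p = 0.0451, below 2-fold). Around Ndn, Magel2, Peg12 and Atp10a were not called, and Mkrn3, another paternally expressed gene, reached 0.92 ± 0.16 (limma adjusted p = 0.00667, below 2-fold), and was called without Scf-GFP+ replicate 1 (1.06). Around Peg3, 0 of 6 neighbours were called, and 0 had an unadjusted limma p below 0.05. Grb10 had 1 neighbour called higher, the growth factor receptor gene Egfr at 3.99 ± 0.16, and 2 called lower, the lymphoid transcription factor gene Ikzf1 at -3.68 ± 0.15 and Fignl1 at -3.65 ± 0.32. Near Plagl1, Utrn and Phactr2 were called higher, as was, near Sgce, the collagen gene Col1a2 at 2.12 ± 0.10.

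**Figure D2:**
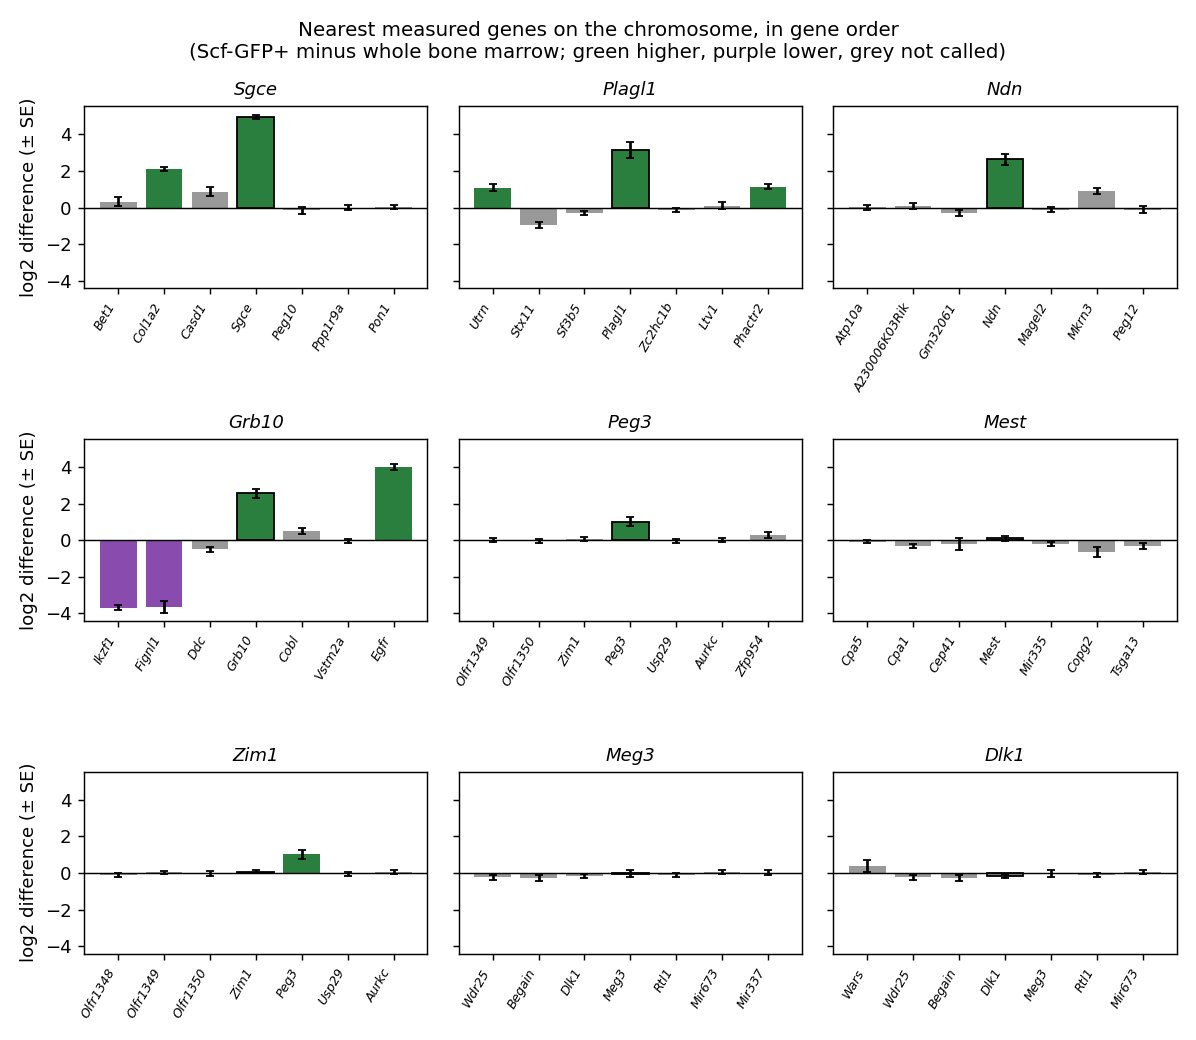
Log2 difference, Scf-GFP+ minus whole bone marrow, with limma SE (vertical axis) for each member (outlined bar) and the 3 nearest measured genes on each side, in chromosome order (horizontal axis). Genes near Grb10 run from -3.68 (Ikzf1) to 3.99 (Egfr), Col1a2 near Sgce stands at 2.12 and Mkrn3 near Ndn at 0.92, and the genes around Peg3 lie near 0.

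For 4 of these domains and 1 other, the difference of a gene was set against that of its imprinted neighbour with an exact two-sided permutation test over the arrays. With 3 arrays per group the smallest p this test allows is 0.1, so it cannot pass 0.05. The pairs were picked with earlier results of these data known, and Mkrn3, near Ndn at 0.92 ± 0.16, was not paired. The Sgce difference exceeded that of Peg10 by 5.13, the Ndn difference that of Magel2 by 2.75 and the Peg3 difference that of Zim1 by 0.94. Each of these 3 pairs gave the exact permutation p of 0.1 (0.125 after Benjamini-Hochberg adjustment over 5 pairs). Dlk1 minus Meg3 gave -0.09 (exact permutation p = 1.0).

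Other imprinted genes, and genes beside them, were mostly not called. Of 64 listed genes 53 were measured, and 7 (13.2%) were called higher and 2 lower, against 9.01% and 7.89% of all genes. Their median log2 difference was 0.00. Among the 32 measured genes of the members' domains, the 3 called higher were Pon3 at 2.88 ± 0.28 and Pon2 at 1.33 ± 0.24, paraoxonase genes of the Sgce domain, and Phactr2 at 1.14 ± 0.14, beside Plagl1. Pon2 was not called with the term for the Xist split (limma adjusted p = 0.0931). The 1 called lower was Tspan32, a tetraspanin of blood cells, at -1.99 ± 0.25. At a limma adjusted p below 0.05 alone, 8 of the 32 were higher and 2 lower. Among the 8 were Asb4 (0.95 ± 0.27) and Tfpi2 (0.90 ± 0.14) of the Sgce domain, named after their values were seen. Classical partners of H19 and Plagl1 were not called. Igf2, a fetal growth factor, measured 7.06, 6.45 and 7.37 in Scf-GFP+ cells, against 6.66, 6.41 and 6.68 in whole marrow (0.38 ± 0.24, limma adjusted p = 0.303). Cdkn1c, a cell cycle inhibitor, measured 7.78, 8.18 and 7.69 in Scf-GFP+ cells, against 7.26, 7.51 and 7.11 in whole marrow, without overlap (0.59 ± 0.17, limma adjusted p = 0.0459, below 2-fold).

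Elsewhere in the genome, 4 of 21 measured imprinted genes were called higher and 1 lower, against 9.01% and 7.89% of all genes. Dcn, the matrix proteoglycan decorin, which is imprinted in mouse placenta, differed by 6.05 ± 0.17. Impact, a regulator of translation, measured 11.31, 11.19 and 10.51 in Scf-GFP+ cells, against 8.94, 8.66 and 8.12 in whole marrow, a difference of 2.43 ± 0.28. Airn, the paternally expressed noncoding RNA that runs antisense to Igf2r and silences it on that copy in mice, measured 9.02, 8.94 and 8.59 in Scf-GFP+ cells, against 6.14, 6.12 and 6.00 in whole marrow (2.76 ± 0.14). Igf2r, the receptor that removes IGF2, named after its value was seen, measured 9.40, 9.08 and 9.42 in Scf-GFP+ cells, against 8.11, 8.20 and 8.25 in whole marrow (1.11 ± 0.13). The groups were apart for both, and the Airn difference exceeded that of Igf2r by 1.65 (exact permutation p = 0.1, the smallest possible). Both genes overlap on opposite strands, and no source used here states how strand was kept, so their signals may not be fully separate. Gatm, a creatine synthesis enzyme, was lower at -3.25 ± 0.21.

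**Figure D3:**
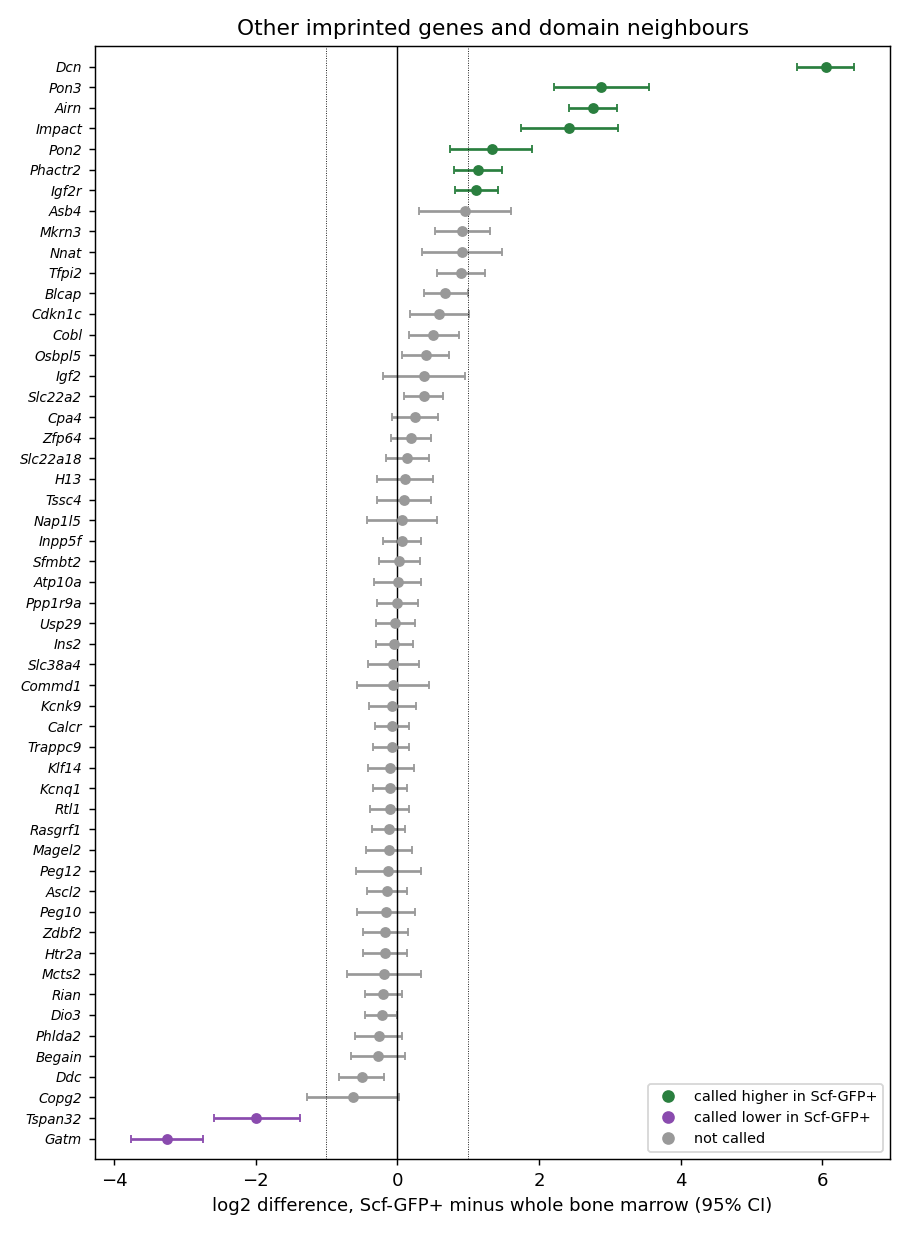
Log2 difference, Scf-GFP+ minus whole bone marrow, with its 95% confidence interval (horizontal axis) for the 53 measured genes of the other imprinted loci, ordered by size. Dotted lines mark a 2-fold difference. The 7 genes called higher lie at the top, led by Dcn at 6.05, the 2 called lower at the bottom, with Gatm at -3.25, and most of the others near 0.

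Factors that keep imprints through cell division were also listed. Of 12 such genes, 0 were called higher and 2 lower, against 9.01% and 7.89% of all genes. The 2 were Dnmt1, the methyltransferase that copies methylation at replication, at -1.96 ± 0.15 and its partner Uhrf1 at -3.53 ± 0.14. Both are known to follow proliferation, whose part in these differences was not tested. At an unadjusted limma p below 0.05, 3 genes of the list were higher and 5 lower. Among the 3 were Zfp57, a zinc finger protein that binds methylated imprint control regions, at 0.77 ± 0.17 (limma adjusted p = 0.0178, below 2-fold) and Zfp445 at 1.16 ± 0.35 (limma adjusted p = 0.0504). Zfp445 was called higher under 5 of the alternatives, among them without Scf-GFP+ replicate 3.

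**Figure D4:**
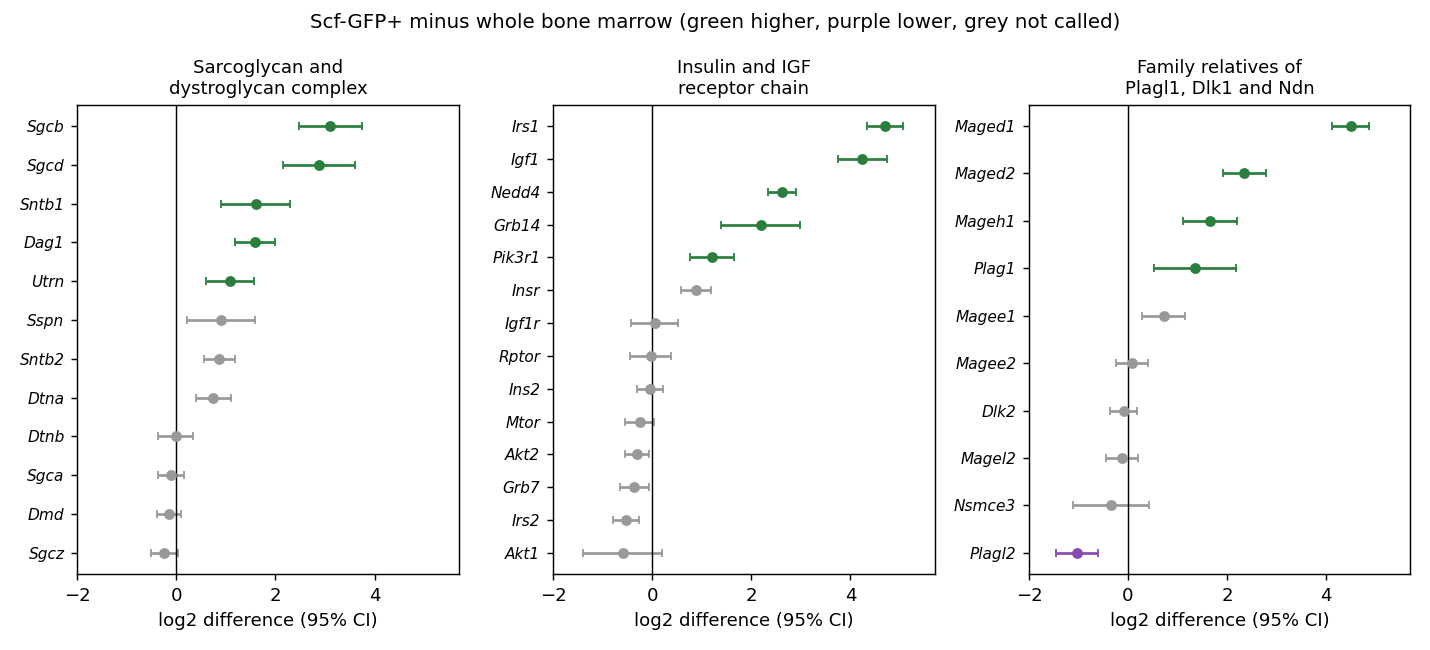
Log2 difference, Scf-GFP+ minus whole bone marrow, with its 95% confidence interval (horizontal axis) for genes of the complex that holds Sgce, of the receptor chain on which Grb10 acts, and of the families of Plagl1, Dlk1 and Ndn. Genes called higher (green) are led by Sgcb at 3.11, Irs1 at 4.70 and Maged1 at 4.49, and Plagl2 is the 1 gene called lower (purple).

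Promoter sequences of RefSeq (GRCm38.p6), running from 250 bases before to 50 after a gene's start, were found for 8 of the 10 members, all but Sgce and H19, in 12 windows. They are shown for Plagl1, Grb10, Ndn and Peg3, which were called, and for Mest, which was not, because ZFP57 recognises the letters TGCCGC when methylated, and capitals mark that hexamer on either strand. The windows are chr10:13090582-13090881 (plus strand) for Plagl1, chr11:12037371-12037670 (minus strand) for the upstream and chr11:12027922-12028221 (minus strand) for the downstream start of Grb10, chr7:62348027-62348326 (plus strand) for Ndn, chr7:6730370-6730669 (minus strand) for Peg3 and chr6:30737800-30738099 (plus strand) for Mest.
Plagl1: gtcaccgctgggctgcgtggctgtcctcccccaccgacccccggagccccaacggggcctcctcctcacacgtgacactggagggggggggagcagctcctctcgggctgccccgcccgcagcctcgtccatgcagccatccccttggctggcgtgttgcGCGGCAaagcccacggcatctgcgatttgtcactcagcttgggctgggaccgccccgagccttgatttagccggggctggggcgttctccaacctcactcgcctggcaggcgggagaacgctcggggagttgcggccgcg
Grb10 upstream: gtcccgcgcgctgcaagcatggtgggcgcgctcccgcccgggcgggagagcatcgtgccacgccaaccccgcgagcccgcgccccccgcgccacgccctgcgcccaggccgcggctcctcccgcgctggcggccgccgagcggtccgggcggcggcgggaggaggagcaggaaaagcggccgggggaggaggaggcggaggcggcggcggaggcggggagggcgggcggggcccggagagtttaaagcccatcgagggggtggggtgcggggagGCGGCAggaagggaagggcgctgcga
Grb10 downstream: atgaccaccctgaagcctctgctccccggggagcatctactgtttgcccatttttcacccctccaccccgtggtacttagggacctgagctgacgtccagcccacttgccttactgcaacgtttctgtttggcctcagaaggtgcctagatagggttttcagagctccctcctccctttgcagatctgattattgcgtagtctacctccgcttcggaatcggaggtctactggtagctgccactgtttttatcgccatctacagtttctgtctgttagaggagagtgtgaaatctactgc
Ndn: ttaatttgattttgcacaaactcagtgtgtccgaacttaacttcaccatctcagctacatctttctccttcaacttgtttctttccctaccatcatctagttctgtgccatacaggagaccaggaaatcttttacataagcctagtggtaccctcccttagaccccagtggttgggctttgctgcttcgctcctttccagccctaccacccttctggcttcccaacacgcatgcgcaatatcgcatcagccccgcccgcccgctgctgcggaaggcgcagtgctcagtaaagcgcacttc
Peg3: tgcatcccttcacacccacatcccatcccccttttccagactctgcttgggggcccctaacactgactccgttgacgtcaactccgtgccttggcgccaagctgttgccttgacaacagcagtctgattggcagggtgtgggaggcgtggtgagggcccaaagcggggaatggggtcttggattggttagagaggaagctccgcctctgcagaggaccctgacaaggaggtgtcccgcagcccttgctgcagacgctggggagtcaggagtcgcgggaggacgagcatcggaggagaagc
Mest: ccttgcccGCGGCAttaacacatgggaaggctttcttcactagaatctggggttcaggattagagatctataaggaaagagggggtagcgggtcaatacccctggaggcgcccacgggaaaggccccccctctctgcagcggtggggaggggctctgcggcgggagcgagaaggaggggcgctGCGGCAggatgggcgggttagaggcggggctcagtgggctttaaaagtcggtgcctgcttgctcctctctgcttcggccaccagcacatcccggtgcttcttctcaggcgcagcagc

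The hexamer was present in 6 of the 12 windows, from 5 of the 8 genes, and in 11.6% of all 32851 promoter windows of this length. It contains a CG, and the share was not taken over windows matched for CG dinucleotides, so these shares are not a like comparison. It occurred in called members (Plagl1 and the upstream start of Grb10) and in members that were not called (Meg3, Mest and Zim1), and 2 of the Mest windows overlap. CG dinucleotides numbered 45 at the upstream start of Grb10, more than in 98.1% of all windows, 26 at Plagl1, 17 at the Mest window shown, 13 at Peg3, 11 at Ndn and 9 at the downstream start of Grb10, against a median of 7. In mice the upstream start of Grb10 is known to serve the maternal copy and the downstream region the paternal copy in neurons, and the single array row does not separate them. The palindrome GGGGCCCC, which PLAGL1 can bind, occurred in the Peg3 window alone among the 12 and in 1.08% of all windows. The YY1 letters CCATNTT occurred in the downstream Grb10 window alone and in 16.1% of all windows. Both strands were searched, and these motifs do not overlap in the windows printed. These are matches of letters and were not tested against the expression values.

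The cell labels were checked against their markers, beside 9.01% of all genes called higher and 7.89% called lower. The 10 stromal markers were all called higher, led by Lepr (6.50), Cxcl12 (6.09) and Kitl (5.57, the gene used for the sort). Lists called lower included 13 of 14 pan-blood genes (1 higher, Runx1), 12 of 14 neutrophil genes, 10 of 10 erythroid genes, 10 of 11 B cell genes (1 higher, Ebf1) and 4 of 10 stem and progenitor genes (0 higher, and 2 higher at an unadjusted limma p below 0.05). Of osteoblast genes 5 of 7, and of adipocyte genes 5 of 9, were called higher and 0 lower (0 and 2 lower at an unadjusted limma p below 0.05). Of 10 skeletal muscle genes, 1 was called higher (Des, also made by mural cells) and 1 lower (Mylpf), while Myod1, Myf5, Myog and Pax7 differed by -0.13 to 0.09. The part of these cell types in the members' differences was not tested.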

How the data were processed

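The 6 arrays fell into 2 groups of 3 by their titles. The authors deposited 1 table of log2 values with 28940 rows. Their processing notes list limma, affy and RMA and give neither a version nor what each was used for, per the labels. Array medians lay between 6.564 and 6.631. The values were used as deposited, without a filter on low values. RMA values carry no detection call, and levels of different genes were not compared. The number of arrays limits the precision. Of the rows, 21789 listed exactly 1 gene symbol. An Entrez match to RefSeq (GRCm38.p6) changed none of these symbols, and 91 rows without a match kept theirs as listed. For 999 genes with several rows the row with the highest mean was used, which gave 19938 genes.

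Groups were compared with limma 3.58.1 (lmFit, eBayes) in R 4.3.3 without covariates, with Benjamini-Hochberg adjustment over all genes, and each difference subtracts the whole marrow mean from the Scf-GFP+ mean. Neighbouring genes were compared with exact permutation tests (scipy 1.17.1). The fit was also run on simulated independent values with a small share of changed genes. That setting is unlike these data, and no result here rests on it. The members, gene lists, rule for named genes and alternatives were chosen with earlier results of these data known. Named genes are all members, called genes of their domains, up to 3 called genes per direction of each other list and nearest patterns. Genes named outside this rule, such as Sgca, Igf1r, Igf2 and Zfp57, were chosen after their values were seen. The deviations of same-numbered arrays from their group means correlated at -0.063, -0.022 and 0.066. Only Scf-GFP+ replicate 3 correlated best with the whole marrow array of its own number. With 3 arrays per group these values cannot show whether same-numbered arrays share an animal or a day. The labels do not say so, and the main fit had no block.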

Additional observations from a re-analysis of the deposited data

How the results depend on the processing

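Of 16 alternatives, none turned the direction of a called member. The calls of Sgce, Plagl1, Ndn and Grb10 held in each, with log2 differences of 4.92 to 5.04, 2.14 to 3.62, 2.28 to 2.80 and 2.33 to 3.04. Dlk1, Meg3, Mest and Zim1 were called in none, although Zim1 was not tested without the dimmest 30% of genes. Peg3 also lost its call with median centring (0.99, below 2-fold) and with the term for the Xist split (1.13, limma adjusted p = 0.111). When 1 array at a time was left out, the members called higher numbered 4 to 5, and Peg3 was the member lost, with fewer arrays in the fit. Over the same fits, family relatives called lower numbered 0 to 1 and imprint maintenance genes called higher 0 to 1. With the Xist term the sarcoglycan complex had 3 genes called higher and the family relatives 0 called lower. The imprint maintenance list had 1 gene called higher without the dimmest 30% of genes, with the mean of all rows, with the trended and robust prior and with array weights. Without the 2-fold requirement, 2758 genes were called higher and 2635 lower, other imprinted genes called higher numbered 14, and the insulin receptor chain had 1 called lower and the maintenance list 1 called higher. The replicate block left Peg3 at 1.02 (limma adjusted p = 0.0192) and changed no call of a member or count of calls beyond 1.5 times. The cause of these changes was not tested. Arrays compress differences at low signal, which limits Zim1 and may limit other genes with means below the array medians, such as Meg3 and Mest.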
